A study of Rattus norvegicus with 6 samples.

Results

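Among the RNAs recovered from psoralen-crosslinked rat cells were transcripts of 37 table rows that lie among zinc finger genes but carry no gene symbol of their own. They were chosen by name, by position in the table and by level. A row qualified by name if it carried a clone name (AABR0 or AC followed by digits) or a provisional LOC or RGD name, as 11167 of the 32883 rows do. It qualified by position if at least 2 rows named Zfp or Znf stood within 5 rows on either side, which left 141 rows. It was kept if at least 3 of the 6 libraries held 10 or more counts, and these measured counts selected 37 of the 141. The other 104 rows were too low: 58 had no count in any library, 46 had some, and none of the 104 passed the expression filter of the test. All 37 kept rows were tested.

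The cells were GH4C1, a rat pituitary tumour cell line that makes growth hormone and prolactin, labelled wild type and treated with psoralen in every library. RNA was pulled down with oligo pool A (3 libraries) or oligo pool B (3 libraries), with the aim, per the series' design, of finding RNAs in direct contact with the long noncoding RNA Neat1. The labels do not say what the oligos in either pool are, and no label marks a pool as a control. Nothing in them says whether the libraries of a pool came from separate cultures, so p-values measure only the spread between these libraries. Total counts were between 1826390 and 3685899. A count of 0 allows up to 3 counts, or between 0.814 and 1.64 CPM (counts scaled to the total count of a library, with no division by gene length). That floor covers counting error only. Of 9 markers of the lineage, Prl, Gh1 and Pou1f1 were present in both pools (means of 445 to 713, 166 to 170.2 and 158 to 204 CPM), whereas Ghrhr and Drd2 were at 0. The 5 measured markers of cells outside the pituitary summed to between 9.49 and 23.5 CPM, most of it Cd68, and 7 of other pituitary lineages to between 14.6 and 26.0 CPM with pool A and between 51.5 and 54.5 CPM with pool B, mostly Lhb, with Tshb and Fshb at 0. The part of these transcripts in the differences between pools was not tested.

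Zinc finger genes named Zfp or Znf encode proteins that bind DNA through repeated fingers, each folded around a zinc ion. Many arose by tandem duplication and sit in clusters of close relatives. Many also carry a KRAB domain, which recruits the co-repressor Trim28 and, with it, enzymes of heterochromatin. Genome annotations of such clusters hold many copies, pseudogenes and fragments that have not received a symbol. Reads that match several copies equally well cannot be placed with certainty, and how such reads were counted is not given in the sources used here, so the values of close copies are uncertain.

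A RefSeq record was found for 13 of the 37 rows, 9 through the gene ID inside the LOC name, 1 by symbol and 3 by synonym. Of these, 5 now carry a zinc finger symbol: LOC102552527 is Zfp677, LOC100911196 is Znf865, LOC100363372 is Znf81L, LOC103690166 is Zfp599 and AABR07031494.1 is Zscan30. A further 5 carry symbols outside the family, namely AABR07005779.1 (Prr14), AABR07069466.1 (Matcap2), LOC679894 (Thoc2l), LOC288521 (Spnl1) and LOC100360117 (Rpl8-ps7, a ribosomal protein pseudogene). The record of the last lies on another chromosome than both named neighbours in its window, so that match is doubtful. LOC108348215, LOC108348302 and RGD1311745 have a protein-coding record without a symbol, and the other 24 rows had no match.

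Promoter windows, from 250 bases before to 50 bases after the start, were given in RefSeq (GRCr8) for 11 of the 13. The windows below belong to 3 rows that were higher with pool B and to 1 that was higher with pool A, and they are shown so that the sequence around the start of these unnamed loci can be read beside their counts. Bases from the start onward are in capitals. The windows lie, in the order printed, at chr16:19665111-19665410 (+ strand), chrX:3679856-3680155 (- strand), chr1:69809364-69809663 (+ strand) and chr8:131479209-131479508 (- strand).
LOC108348302: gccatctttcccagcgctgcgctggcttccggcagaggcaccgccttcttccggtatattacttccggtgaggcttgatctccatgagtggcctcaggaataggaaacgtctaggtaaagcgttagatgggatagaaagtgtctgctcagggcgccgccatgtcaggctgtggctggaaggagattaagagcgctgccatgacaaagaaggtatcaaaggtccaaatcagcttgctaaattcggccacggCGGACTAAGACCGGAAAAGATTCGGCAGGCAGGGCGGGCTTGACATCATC
LOC100363372: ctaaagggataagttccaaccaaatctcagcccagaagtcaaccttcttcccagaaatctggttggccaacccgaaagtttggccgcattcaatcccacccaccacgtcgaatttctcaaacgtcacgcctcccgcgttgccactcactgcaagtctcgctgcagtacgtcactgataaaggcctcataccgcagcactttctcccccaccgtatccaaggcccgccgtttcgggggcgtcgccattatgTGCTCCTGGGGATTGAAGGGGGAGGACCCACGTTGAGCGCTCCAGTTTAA
LOC102552527: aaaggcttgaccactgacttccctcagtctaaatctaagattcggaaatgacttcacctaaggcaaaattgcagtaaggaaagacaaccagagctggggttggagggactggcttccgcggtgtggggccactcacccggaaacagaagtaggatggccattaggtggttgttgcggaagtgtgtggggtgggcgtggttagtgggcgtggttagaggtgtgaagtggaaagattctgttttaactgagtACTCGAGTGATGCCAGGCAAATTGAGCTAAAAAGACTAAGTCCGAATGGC
RGD1311745: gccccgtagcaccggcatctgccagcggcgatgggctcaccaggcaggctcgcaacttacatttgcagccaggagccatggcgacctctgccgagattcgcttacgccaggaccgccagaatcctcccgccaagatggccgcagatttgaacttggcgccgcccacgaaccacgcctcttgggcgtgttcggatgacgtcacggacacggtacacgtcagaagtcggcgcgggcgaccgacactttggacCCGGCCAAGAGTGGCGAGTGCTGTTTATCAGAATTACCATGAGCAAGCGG

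The 11 windows had a median GC content of 54.7% (42.3% to 63.0%), against 52.3% over 27457 RefSeq genes and 53.5% over 354 genes named Zfp or Znf. On both strands, CCAAT was found in 3 of the 11, GGGCGG in 5, TATAAA in 2 and CCGGAA, which contains the GGAA core of ETS factor sites, in 4. CCGGAA occurred 4 times in the window of LOC108348302, once in that of LOC102552527, 2 times in that of AABR07031494.1 and once in that of AABR07005779.1. In all windows the shares were 37.8% for CCAAT, 34.9% for GGGCGG, 14.3% for TATAAA and 15.8% for CCGGAA, and in Zfp or Znf windows 47.7%, 36.4%, 9.89% and 31.4%. The last motif and the choice of 1 window per gene were made after the windows had been read.

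Whether the unnamed rows differed between pools as the named ones do was addressed with the fit across the whole table. Of the 37 rows, 17 were higher with pool B, 2 were higher with pool A and 18 did not pass the threshold (edgeR, adjusted p under 0.05). Over all 11582 tested rows, 22.0% were higher with pool B and 18.6% with pool A. For the 37 the shares were 45.9% and 5.41%. A row that reached 10 counts in pool B libraries alone had to differ, and that holds for 2 of the 17. The other 35 rows had 10 counts in at least 1 library of each pool, called reaching the level in both pools below. Among them, 15 were higher with pool B and the same 2 with pool A. Over the 11297 tested rows of this kind the shares were 21.6% and 18.2%. Some of the 35 still met the level rule only with pool B libraries counted, so the selection is not removed. Of the 23 rows with 10 counts in every library, 9 were higher with pool B and 1 with pool A. The median log2 fold change (pool A over pool B) was -0.83 over the 37 rows and -0.83 over those 35, against 0.02 over all tested rows. Differences of more than 4-fold past the threshold were found for 9 of the 35 rows, all of them higher with pool B. Over tested rows that reached the level in both pools, 3.61% passed both limits in favour of pool B and 2.80% in favour of pool A. Over all tested rows the shares were 4.39% and 3.43%. Scaling by total counts alone turned the shares over all tested rows to 25.1% in favour of pool B and 14.9% in favour of pool A, and upper-quartile scaling to 19.4% and 21.7%, while 19 and 16 of the 37 rows were then higher with pool B and 2 with pool A.

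The CPM ranges of the pools did not overlap for 23 of the 37 rows. All pool B libraries lay above all pool A libraries for 21 rows, where 30.2% of all tested rows showed this order. Of these 21, 19 were among the 35 rows that reached the level in both pools. Over all tested rows that did so, 29.8% showed this order. All pool A libraries lay above for 2 rows, where 18.9% of all tested rows showed that order. These 37 rows held between 0.0708% and 0.0861% of the counts of a pool A library and between 0.198% and 0.218% of those of a pool B library. In each library the highest row alone gave between 21.3% and 38.0% of that sum, so these shares describe few rows. The members were chosen by level, and these counts and medians are descriptions.

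**Figure D1:**
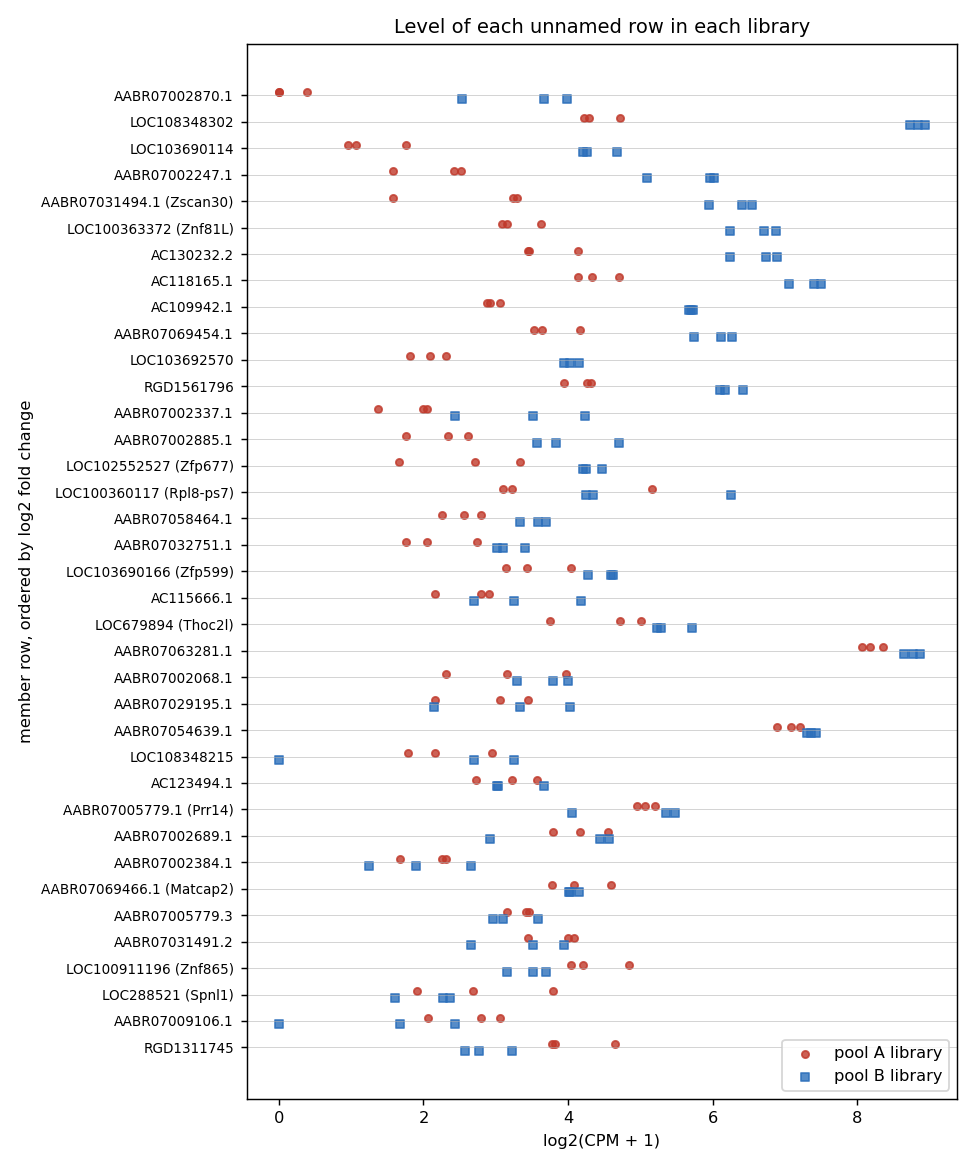
Level of each of the 37 rows in each library as log2(CPM + 1), with pool A libraries as circles and pool B libraries as squares, ordered by log2 fold change with the rows most in favour of pool B at the top. The pools are apart for the upper 15 rows and overlap for most rows of the lower part, and LOC100911196 and RGD1311745 lie higher with pool A.

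The smallest adjusted p of the 37 belonged to LOC108348302 (ENSRNOG00000011492), 1 row before Zfp866. It had 17.6, 18.6 and 25.4 CPM in the pool A libraries and 423, 489 and 455 CPM in the pool B libraries. Every pool B library was thus far above every pool A library, at 456 ± 33.1 against 20.5 ± 4.24 CPM (SD, n = 3 each). On the log2 scale the difference was -4.33 ± 0.17 (SE; edgeR, adjusted p = 2.24e-17). Of the 4 named rows in its window, Zfp869 and Zfp866 were also higher with pool B, with log2 fold changes of -5.77 ± 0.18 (SE) and -2.88 ± 0.44. Zfp964 reached 10 counts in pool B libraries alone (7, 8 and 1 counts against 67, 18 and 42) and is given with no test. The 4th, Zfp868, had 10.4 ± 1.42 CPM with pool A and 10.3 ± 1.78 CPM with pool B (SD, n = 3 each; adjusted p = 0.812), so the rows of this cluster did not all differ.

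Of the 5 rows with a zinc finger symbol in RefSeq, 3 were higher with pool B and 1 with pool A. Over all tested rows the shares were 22.0% and 18.6%, and a count over 5 rows is a description only. LOC100363372 (Znf81L), next to Zfp182, had 7.87, 7.51 and 11.3 CPM with pool A and 74.6, 104 and 117 CPM with pool B, without overlap. Its log2 fold change was -3.32 ± 0.25 (SE; adjusted p = 1.43e-11), beside -3.68 ± 0.29 for Zfp182. AABR07031494.1 (Zscan30), a zinc finger gene with a SCAN domain, which mediates protein pairing, had 8.41, 1.98 and 8.78 CPM with pool A and 61.0, 92.5 and 83.6 CPM with pool B. It differed by -3.42 ± 0.31 on the log2 scale (adjusted p = 7.18e-10). All 3 named rows in its window were higher with pool B as well, and Zfp35 stood at 4.76 ± 2.80 CPM with pool A and 150.1 ± 27.8 CPM with pool B (SD, n = 3 each).

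LOC102552527 (Zfp677), before Zfp54, had 2.17, 5.54 and 9.10 CPM with pool A and 21.1, 18.1 and 17.4 CPM with pool B. Its lowest pool B library lay above its highest pool A library, with a log2 fold change of -1.63 ± 0.46 (adjusted p = 0.00494). LOC103690166 (Zfp599) had 9.77, 15.4 and 7.84 CPM with pool A and 18.4, 23.5 and 23.1 CPM with pool B. Its ranges did not overlap, and its log2 fold change of -0.83 ± 0.36 did not pass (adjusted p = 0.0722).

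The 5th, LOC100911196 (Znf865), went the other way. It had 15.5, 17.4 and 27.6 CPM with pool A and 11.9, 10.4 and 7.94 CPM with pool B, all pool A libraries above. The log2 fold change was 1.13 ± 0.37 (adjusted p = 0.0146). The call was lost without pool A replicate 3 (adjusted p = 0.0968) and without pool B replicate 3 (0.0608), within a range of 0.00791 to 0.0968 over its alternatives. A row named Zfp865 stands 2 rows away, with -0.46 ± 0.37 (adjusted p = 0.34), and the pair may share reads under an unstated counting scheme.

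Several of the rows that differed by more than 4-fold carry clone names and had no RefSeq match. AC118165.1, between Zfp112 and Zfp111, had 24.96, 16.6 and 19.1 CPM with pool A and 132, 179 and 168 CPM with pool B. Its log2 fold change was -2.81 ± 0.20 (adjusted p = 5.01e-12). In the same window Zfp112 and Zfp111 differed by -4.64 ± 0.31 and -4.36 ± 0.21, while Zfp61 was higher with pool A by 2.26 ± 0.18. Opposite directions thus occurred within a few rows of the table.

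AC130232.2, between Zfp617 and Zfp709, had 16.5, 9.89 and 10.04 CPM with pool A and 118, 106 and 74.5 CPM with pool B (log2 fold change -2.86 ± 0.25, adjusted p = 2.95e-10). Both named neighbours were higher with pool B, with -4.34 ± 0.48 for Zfp617 and -1.52 ± 0.28 for Zfp709 on the same scale. AC109942.1, between Zfp472 and Zfp763, was even within each pool, at 7.33, 6.33 and 6.59 CPM against 50.8, 49.8 and 51.8 CPM (log2 fold change -2.76 ± 0.28). Zfp472 had -3.59 ± 0.28, and Zfp763, which reached 10 counts in pool B libraries alone, had 8, 6 and 6 counts against 246, 180 and 234.

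AABR07002247.1, near Zfp418, had counts of 16, 5 and 15 with pool A and 97, 112 and 168 with pool B. In CPM these were 4.34, 1.98 and 4.71 against 33.1, 61.3 and 63.6, a log2 fold change of -3.64 ± 0.35 (adjusted p = 2.19e-09). This row stands between a pair of rows named 7SK, a repeated small RNA gene. Zfp418 differed by -2.65 ± 0.52, and the other named rows in the window, Zfp772 and Zfp773-ps1, were too low to be tested.

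Rows AABR07002870.1 and LOC103690114 reached 10 counts in pool B libraries alone, and no test is given for them. AABR07002870.1, between a Zfp84 row and Zfp74, had 0, 0 and 1 counts with pool A and 14, 27 and 31 with pool B. Relative to the total counts of the pools this was a ratio of 91.4 in favour of pool B, with an exact 95% interval of 15.9 to 3661 that covers counting error only. The row was selected on its pool B counts, so the ratio describes it and is no evidence of a difference. LOC103690114 had 4, 6 and 3 counts with pool A and 72, 32 and 48 with pool B, or 1.47 ± 0.788 against 20.1 ± 3.88 CPM (SD, n = 3 each).

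The Zfp84 and Zfp82 rows near them were higher with pool B. A pair of rows named Zfp84 lies in these windows, and they differed by -3.34 ± 0.18 and -2.54 ± 0.43. AABR07002885.1 of the same stretch had 5.15, 2.37 and 4.08 CPM with pool A and 10.9, 25.2 and 13.2 CPM with pool B (-1.89 ± 0.50, adjusted p = 0.00326). Zfp566, 2 rows further on, reached 10 counts in pool A libraries alone, with 30, 10 and 15 counts against 4, 1 and 1.

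**Figure D2:**
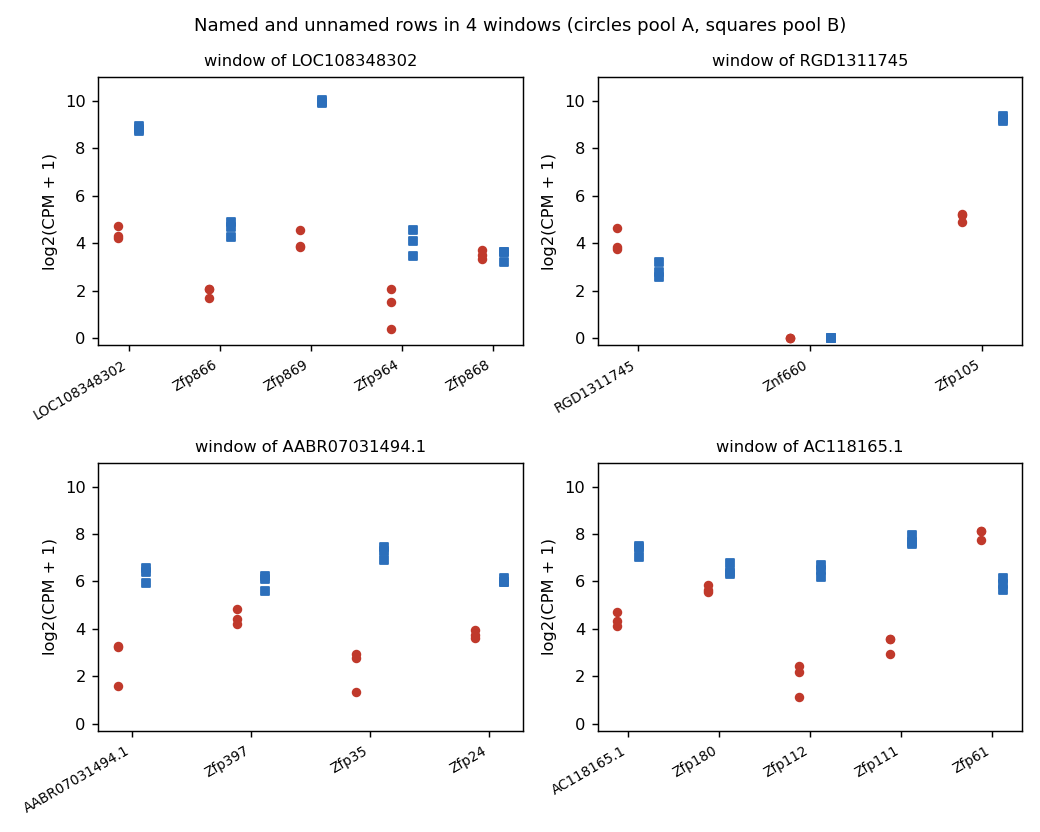
Levels as log2(CPM + 1) of the unnamed row, at the left of each panel, and of the named Zfp or Znf rows of its window, for LOC108348302, RGD1311745, AABR07031494.1 and AC118165.1, with circles for pool A libraries and squares for pool B libraries. All 3 named rows around AABR07031494.1 lie higher with pool B, Zfp868 and Zfp61 do not follow the other rows of their windows, and RGD1311745 and Zfp105 lie in opposite directions.

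The other 6 rows higher with pool B had log2 fold changes between -2.19 (AABR07069454.1) and -0.42 (AABR07063281.1). AABR07069454.1, next to Zfp872, had 10.6, 11.5 and 16.9 CPM against 52.5, 76.1 and 68.1 CPM, so no pool B library came near pool A. RGD1561796 had 19.0, 18.2 and 14.4 CPM against 84.5, 67.9 and 70.7 CPM (-1.96 ± 0.23, adjusted p = 7.83e-08). LOC103692570 and AABR07002337.1 had -2.10 ± 0.49 and -1.90 ± 0.62.

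AABR07063281.1 lies between Zfp512 and Zfp513. It had 289, 267 and 327 CPM with pool A and 400.5, 435 and 467 CPM with pool B. The ranges were apart, but the difference was small, with a log2 fold change of -0.42 ± 0.13 (adjusted p = 0.00997). The call was lost without pool A replicate 2 (adjusted p = 0.0627) and without pool B replicate 3 (0.0575), within a range of 0.00211 to 0.0627 over its alternatives. Its neighbours Zfp512 and Zfp513 differed by -1.45 ± 0.16 and -0.78 ± 0.17.

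RGD1311745 was the 2nd row higher with pool A. It had 24.1, 12.7 and 13.2 CPM with pool A and 5.79, 4.93 and 8.32 CPM with pool B, without overlap, and a log2 fold change of 1.53 ± 0.43 (adjusted p = 0.0057). Without pool A replicate 1 the adjusted p was 0.0962, the highest of its alternatives, which began at 0.00287. Zfp105, 3 rows before it on the other side of unnamed rows, was higher with pool B, at 33.4 ± 4.001 against 606 ± 44.2 CPM (SD, n = 3 each), or -4.03 ± 0.15 on the log2 scale (adjusted p = 2.22e-17).

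The 5 rows with a RefSeq symbol outside the zinc finger family, the doubtful match included, had a median log2 fold change of 0.15. Over all tested rows, 22.0% were higher with pool B and 18.6% with pool A. The count over these 5 rows is near those shares and is no result about them. Their difference from the rows with a zinc finger symbol was not tested. Of the 5, 1 passed, higher with pool B. That was LOC679894, matched to Thoc2l, a relative of the mRNA export gene Thoc2, with 12.5, 31.2 and 25.4 CPM with pool A and 51.5, 36.7 and 37.8 CPM with pool B (-0.74 ± 0.29, adjusted p = 0.041). AABR07005779.1 (Prr14, which encodes a protein that tethers heterochromatin to the nuclear lamina) had 35.8, 30.1 and 32.3 CPM with pool A and 15.7, 39.97 and 43.5 CPM with pool B. The pools overlapped, and the log2 fold change was 0.15 ± 0.29 (adjusted p = 0.729).

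AABR07069466.1 (Matcap2) had 17.3 ± 5.40 CPM with pool A and 15.7 ± 0.854 CPM with pool B (SD, n = 3 each; adjusted p = 0.562). LOC100360117, the doubtful match to a pseudogene, had 7.60, 8.31 and 34.8 CPM with pool A and 75.3, 18.1 and 19.3 CPM with pool B. In each pool 1 library stood far above the other two. Its adjusted p was 0.0686 with all libraries and 0.00128 without pool A replicate 3, and its log2 fold change moved from -1.06 to -2.07. Without pool B replicate 1 the log2 fold change was -0.03 (adjusted p = 0.965).

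Among the 35 rows that reached the level in both pools, 22 had no match, of which 10 were higher with pool B and none with pool A (edgeR, adjusted p under 0.05), with a median of -0.88. By way of naming, 6 of 18 AABR rows, 5 of 10 LOC rows, 3 of 5 AC rows and 1 of 2 RGD rows of the 35 were higher with pool B. The counts were 7 of 17 for rows with 2 named rows in the window and 8 of 18 for rows with 3 or more. The share was 22.0% over all tested rows and 21.6% over those that reached the level in both pools. These groups are small, and differences between them were not tested.

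Of the 18 rows that did not pass, 14 had overlapping pools and 4 did not. Among the latter was AABR07054639.1. This row, near Sall4 and Zfp64, had 147, 117 and 135 CPM with pool A and 163, 171 and 158 CPM with pool B. Its pool B libraries were all higher in CPM, but after scaling its log2 fold change was -0.16 ± 0.15 (adjusted p = 0.43). AABR07002689.1, with overlapping pools, had 22.5, 17.0 and 12.9 CPM with pool A and 20.8, 6.57 and 22.7 CPM with pool B (0.19 ± 0.39, adjusted p = 0.744).

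AABR07009106.1 stood between Zfp708 and Zfp458, which reached 10 counts in pool B libraries alone (3, 2 and 3 counts against 63, 37 and 71, and 1, 8 and 1 against 26, 19 and 13). It did not pass itself, on counts of 27, 8 and 19 with pool A and 13, 4 and 0 with pool B (1.43 ± 0.78, adjusted p = 0.154). AABR07031491.2, in the same window as AABR07031494.1, had counts of 55, 25 and 51 against 42, 19 and 14 (0.58 ± 0.42, adjusted p = 0.298).

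At the edge of the level rule, the 3rd-highest count was 10 in AABR07002384.1 and 11 in LOC108348215 and LOC288521, which were kept. It was 9 in AABR07071814.1 and AABR07005779.5 and 8 in AABR07002893.1, which were not. The kept 3 had log2 fold changes of 0.23 ± 0.72, -0.02 ± 0.78 and 1.20 ± 0.65 and adjusted p-values of 0.837, 0.988 and 0.15.

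The named rows around the 37 are set beside them on the same terms. The windows hold 80 rows named Zfp or Znf, of which 65 were tested, and of these 5 reached 10 counts in pool B libraries alone and 2 in pool A libraries alone. Among the other 58, 37 (63.8%) were higher with pool B, 7 (12.1%) were higher with pool A and 14 did not pass, with a median log2 fold change of -1.52. With all 65 the counts were 42 and 9 and the median was -1.58. Over the 196 tested Zfp or Znf rows of the whole table that reached the level in both pools, 97 (49.5%) and 19 (9.69%) passed in these directions, with a median of -0.64. The 955 tested unnamed rows outside the windows that met both rules had 18.1% higher with pool B, 15.5% higher with pool A and a median of 0.03. Windows overlap and rows were selected, so these shares are set side by side with no test.

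**Figure D3:**
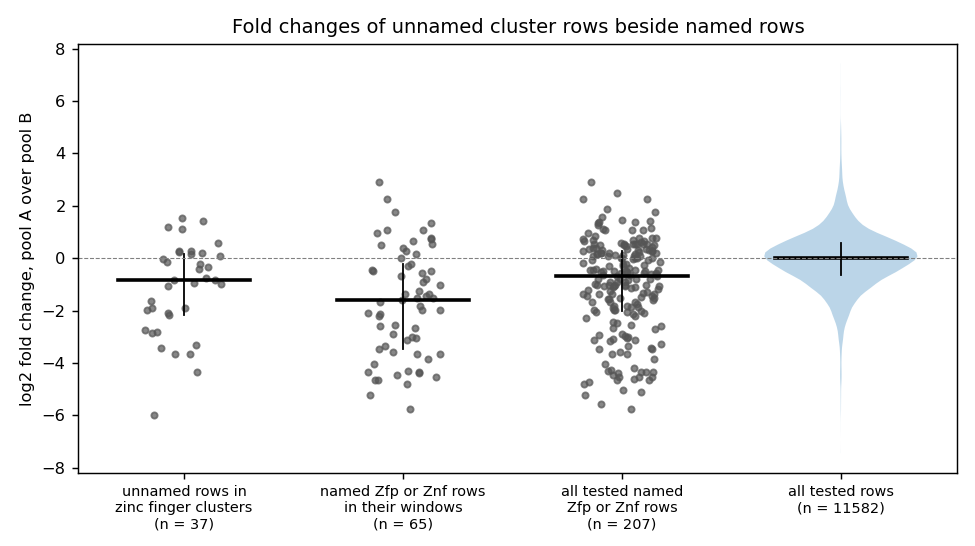
Log2 fold changes (pool A over pool B) of the 37 unnamed rows, the 65 tested named rows in their windows, all 207 tested named rows and, as a violin, all 11582 tested rows, with thick bars at the medians and thin bars from the 25th to the 75th percentile. The medians are -0.83, -1.58, -0.68 and 0.02.

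Set beside its own neighbours, an unnamed row could go either way. A named neighbour that was tested and reached the level in both pools was at hand for 33 of the 35 rows that did so themselves. In these 33, the row's log2 fold change lay above the median of such neighbours in 19 and below it in 14. Spearman's rho between the row and that median was 0.46 and Pearson's r was 0.48 (0.43 and 0.47 over the 36 rows with any tested named neighbour), as a description only, since all points share the 6 libraries and several share neighbours. For 17 of the 33 the neighbours' median was under -1, and of these 11 were higher with pool B, 1 was higher with pool A and 5 did not pass, with a median of -1.90. In the 16 others 3 were higher with pool B, 1 with pool A and 12 did not pass, with a median of -0.04. Over all tested rows that reached the level in both pools, 21.6% were higher with pool B and 18.2% with pool A. The 3 of 16 lie near the first of these shares, and the difference between the 2 sets was not tested. The limit of -1 was set after the values were seen. Of the 15 rows higher with pool B that reached the level in both pools, 13 had such a named neighbour higher with pool B, but so did 12 of the 18 rows that did not pass and both rows higher with pool A.

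**Figure D4:**
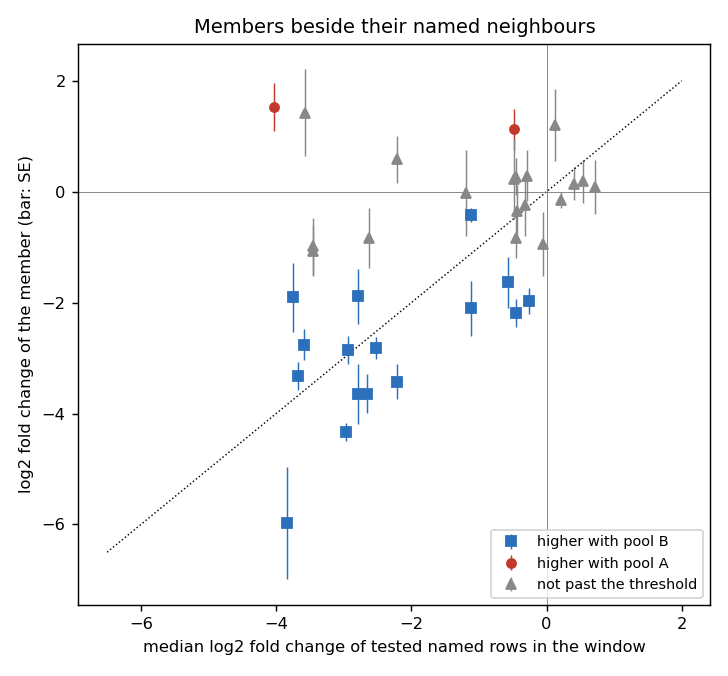
Log2 fold change of each of 36 unnamed rows, with bars of 1 SE, against the median log2 fold change of the tested named rows in its window; the dotted line marks equal values. Rows higher with pool B (squares) lie mostly at the left, where neighbours are higher with pool B too, and RGD1311745 lies at the upper left, opposite to its neighbour. AABR07002870.1 and LOC103690114 are drawn at their fitted values and carry no test in the text.

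The rows lie in 28 clusters, taken as runs of named and unnamed rows with gaps of at most 5 rows, and 20 clusters hold a single one of the 37. The cluster of Zfp872 and Zfp810 holds 3. There AABR07069454.1 was higher with pool B, LOC103690166 and AABR07069466.1 did not pass, Zfp872 was higher with pool B (log2 fold change -1.68 ± 0.59) and Zfp810 with pool A (0.76 ± 0.27).

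Of the machinery that KRAB zinc finger proteins act through, 22 of 27 listed genes were tested, of which 6 were higher with pool B and 3 with pool A, with a median log2 fold change of -0.02. Over all tested rows the shares were 22.0% and 18.6%, close to those of this list, so its count is no result about these genes. Trim28 itself had 156 ± 28.4 CPM with pool A and 187 ± 36.8 CPM with pool B (SD, n = 3 each; adjusted p = 0.594). Hdac2, a histone deacetylase, was higher with pool A (1.8002 ± 0.22). Cbx3, a heterochromatin protein, Dnmt1, the maintenance DNA methyltransferase, and Uhrf1, its partner, were higher with pool B (-1.798 ± 0.18, -1.64 ± 0.14 and -1.14 ± 0.14). Chd4, a chromatin remodeller, was higher with pool A (0.86 ± 0.13). The other 4 that passed differed less, Cbx1 with 0.85 ± 0.19 in favour of pool A, and Dnmt3a (-0.45 ± 0.13), Chd3 (-0.37 ± 0.13) and Ehmt1 (-0.37 ± 0.13) in favour of pool B.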

How the data were processed

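The authors deposited 1 table of counts for 32883 rat genes, whole numbers per gene and library; STAR and featureCounts are named in the submitters' processing notes, and versions, genome build, annotation and the treatment of strand and multiply mapped reads are not given in the sources used here. The table also holds the authors' mean count (a signal column) per pool, which equals the mean of 3 libraries in all 32883 rows and was not used further.

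edgeR 4.0.16 in R 4.3.3 was run on all 6 libraries with TMM scaling, edgeR's expression filter by pool and the quasi-likelihood test, with the pool as the only term; each SE is the log2 difference divided by the square root of F. All p-values are two-sided, with Benjamini-Hochberg adjustment over 11582 tested rows. The procedure was also run on simulated data, in which far fewer rows changed than were called here. That run therefore does not vouch for the calls in these data. limma 3.58.1 and DESeq2 1.42.0 served as alternatives.

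Members and lists were chosen with earlier results of these data known. Named members are the 8 largest changes in each direction past the threshold without overlap of the pools and with a mean of at least 10 counts, the 5 highest in mean CPM, the 5 highest among rows not past, and 3 rows on each side of the level rule. Others named in the text (such as AC109942.1, AABR07069454.1 and AABR07009106.1) were chosen after their values were seen. RefSeq (GRCr8) was used for names and promoter windows (the one farthest 5' per gene).

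Same-numbered libraries did not deviate together (r of 0.0409, -0.0195 and 0.02), which is no sign of pairing. The chi-square per degree of freedom between libraries of a pool was between 6.37 and 23.3, so no pair of libraries agreed within counting noise and none was merged; this does not show that they came from separate cultures.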

Additional observations from a re-analysis of the deposited data

How the results depend on the processing

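With the replicate block, 17 rows were higher with pool B and 2 with pool A, and no member changed its call; it tests no real pairing. Under the DESeq2 scaling, total counts alone and upper-quartile factors the 19 called rows kept their direction, and 16 to 19 rows were higher with pool B. DESeq2's own test and limma-voom each kept 18 of the 19 calls, in the same direction. The median log2 fold change of the members was -0.81, -0.98 and -0.72, beside 0.03, -0.12 and 0.12 over all tested rows. Of 258 refits of 19 named members, 234 kept direction and side of the threshold, 5 lost the call and 6 gained it, the last all for LOC100360117. The other 13 changed sign without passing the threshold before or after. LOC108348215 (-0.02) did so with DESeq2 size factors (0.0016), DESeq2's test (0.025), limma-voom (1.01), the replicate block (0.37) and upper-quartile factors (0.081). It also did so in 4 of the refits that left out a library, with values from 0.086 to 0.87. All refits that left out a library ranged from -0.62 to 0.87 for this row. The same refits ranged from -0.16 to 0.89 for AABR07002384.1, from -0.17 to 0.46 for AABR07002689.1 and from -0.21 to 0.43 for AABR07005779.1, with 1, 2 and 1 below 0.

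Leaving out a library gave 15 to 18 members higher with pool B and 1 to 2 with pool A, with 1 without pool A replicate 1, pool A replicate 3 or pool B replicate 3. The median ranged from -0.97 to -0.75, named rows near members from 39 to 41 and from 6 to 9, and all tested rows from 18.04% to 20.0% and from 15.5% to 17.1%; 9 became 6 without pool A replicate 1 or pool B replicate 2.

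Counts also moved with the filter, the threshold and the rule for members. With 10 counts in every library as the filter, 11 of 23 members tested were higher with pool B and 1 with pool A, beside 24.5% and 21.6% of all rows, and 23 named rows with pool B. As the level rule it left 9 and 1 of 23 members. With no filter, 13.5% and 11.6% of all rows passed. Against a 1.5-fold change, 1 member and 3 named rows were higher with pool A, and 13.1% and 9.98% of all rows passed; at an adjusted p under 0.01, 1 member and 4 named rows were higher with pool A. A window of 3 rows gave 1 of 24 members and 5 named rows higher with pool A and a median of -1.76, and one of 10 rows 26 of 62 members higher with pool B and 14 named rows with pool A. With at least 1 named row, 37 and 6 of 98 members and 14 named rows with pool A passed. With at least 4, 4 and 1 of 8 members passed (median -1.36), with 18 and 3 named rows. At 30 counts the median of 24 members was -1.35, with 27 named rows higher with pool B. Rows with a RefSeq zinc finger symbol gave 3 and 1 of 5 (median -1.63). RefSeq records gave no descriptions here, so the symbol stood in for them. The restriction of members and named rows to those with 10 counts in at least 1 library of each pool was chosen after seeing the data.

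Depth limits the low rows: 14 of the 37 had under 10 counts in at least 1 library.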
